A study of Mus musculus with 16 samples.

Results

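The regions described here are 2114 peaks of H3K27ac that were found in control embryos and had no counterpart in mutant embryos. They were chosen by their position and width in the deposited peak lists. Each is a control H3K27ac peak on chromosomes 1 to 19, wider than 5000 bp and at most 10000 bp, that shares no base with any mutant H3K27ac peak. They made up 23.4% of the 9025 control H3K27ac peaks of that width on these chromosomes, and the other 6911 overlapped a mutant peak. The 4 lists of the series held 372612 peaks in all. The samples were mouse embryos at the late 2-cell stage, 36 h after fertilization. Control embryos had received water as zygotes, and mutant embryos Hdac1 mutant mRNA, so that both groups had been injected and neither was left untouched. The labels do not say which residue of Hdac1 was altered, and neither the injected product nor the embryos' own Hdac1 was measured here. H3K27ac and H3K4me3 were profiled by ultra-low-input native chromatin immunoprecipitation, with 2 immunoprecipitation and 2 input libraries for each mark and injection.

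H3K27ac is an acetyl group on lysine 27 of histone H3 that is laid down by the acetyltransferases p300 and CBP and marks active promoters and enhancers. Hdac1 encodes a histone deacetylase, which removes such groups as part of several corepressor complexes. In mouse, the late 2-cell stage is the time of the major wave of zygotic genome activation, when the embryo begins to transcribe its own genome broadly. Both H3K27ac and H3K4me3, a methyl mark of promoters, spread over wide domains in oocytes and early embryos and are rearranged around this stage.

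Some of the control-only peaks lay over promoters, and 8 of these promoters are shown because the results below turn on their H3K4me3 and their content of CpG dinucleotides, the sites at which DNA can be methylated. The sequences are from RefSeq, on GRCm38.p6, and run 5′ to 3′ from 250 bases before to 50 bases after the transcription start, with CpG in capitals. In the first group of 3, control embryos had H3K4me3 over the promoter and mutant embryos had none. They belong to Ddx18 (chr1:121567931-121568230, minus strand), Gas2l3 (chr10:89443918-89444217, minus strand) and Lmna (chr3:88503303-88503602, minus strand), the last being a start inside the gene.

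Ddx18: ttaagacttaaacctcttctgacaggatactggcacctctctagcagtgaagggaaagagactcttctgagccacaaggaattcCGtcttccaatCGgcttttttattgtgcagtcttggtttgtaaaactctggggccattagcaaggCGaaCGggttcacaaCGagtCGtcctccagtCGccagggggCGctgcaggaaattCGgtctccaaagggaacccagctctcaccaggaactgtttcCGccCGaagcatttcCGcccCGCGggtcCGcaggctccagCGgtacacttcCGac
Gas2l3: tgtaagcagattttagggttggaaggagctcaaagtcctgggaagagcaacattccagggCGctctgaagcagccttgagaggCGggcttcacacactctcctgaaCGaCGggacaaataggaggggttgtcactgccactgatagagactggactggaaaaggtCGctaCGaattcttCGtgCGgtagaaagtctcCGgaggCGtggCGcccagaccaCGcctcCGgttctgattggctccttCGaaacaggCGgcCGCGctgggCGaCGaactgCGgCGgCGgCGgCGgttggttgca
Lmna: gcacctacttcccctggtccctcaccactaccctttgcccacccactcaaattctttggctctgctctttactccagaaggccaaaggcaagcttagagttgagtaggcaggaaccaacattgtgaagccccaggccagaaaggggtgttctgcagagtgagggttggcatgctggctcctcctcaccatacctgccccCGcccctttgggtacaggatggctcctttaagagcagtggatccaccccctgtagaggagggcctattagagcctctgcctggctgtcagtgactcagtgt

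In the second group of 5, both conditions had H3K4me3 over the promoter. They belong to Psmc5 (chr11:106255935-106256234, plus strand), Noc2l (chr4:156235760-156236059, plus strand), Bms1 (chr6:118419368-118419667, minus strand), Psmb4 (chr3:94886909-94887208, minus strand) and Tdgf1 (chr9:110946109-110946408, minus strand). The starts shown for Noc2l and Bms1 lie inside the annotated genes, whose 5′ ends are at 156234655 and 118419802. The Psmc5 start lies head to head with that of Ftsj3, so that a single control-only peak covered both.

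Psmc5: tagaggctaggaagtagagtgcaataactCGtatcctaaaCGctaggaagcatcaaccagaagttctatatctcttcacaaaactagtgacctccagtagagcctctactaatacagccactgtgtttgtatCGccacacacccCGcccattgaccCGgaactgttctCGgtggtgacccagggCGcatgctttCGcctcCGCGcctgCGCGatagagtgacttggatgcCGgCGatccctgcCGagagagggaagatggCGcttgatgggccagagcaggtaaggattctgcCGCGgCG
Noc2l: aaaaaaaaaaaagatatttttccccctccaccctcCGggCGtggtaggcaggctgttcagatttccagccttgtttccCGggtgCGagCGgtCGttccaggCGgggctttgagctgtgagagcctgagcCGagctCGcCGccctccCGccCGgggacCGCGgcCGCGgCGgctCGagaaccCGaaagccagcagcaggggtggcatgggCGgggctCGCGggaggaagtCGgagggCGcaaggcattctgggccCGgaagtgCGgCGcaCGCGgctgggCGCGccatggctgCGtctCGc
Bms1: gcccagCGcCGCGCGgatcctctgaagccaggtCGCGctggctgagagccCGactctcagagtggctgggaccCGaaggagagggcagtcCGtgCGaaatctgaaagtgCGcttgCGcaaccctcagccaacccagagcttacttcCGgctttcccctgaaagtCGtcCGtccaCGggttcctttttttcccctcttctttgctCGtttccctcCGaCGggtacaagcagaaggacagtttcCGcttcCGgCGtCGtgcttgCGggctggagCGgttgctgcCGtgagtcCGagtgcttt
Psmb4: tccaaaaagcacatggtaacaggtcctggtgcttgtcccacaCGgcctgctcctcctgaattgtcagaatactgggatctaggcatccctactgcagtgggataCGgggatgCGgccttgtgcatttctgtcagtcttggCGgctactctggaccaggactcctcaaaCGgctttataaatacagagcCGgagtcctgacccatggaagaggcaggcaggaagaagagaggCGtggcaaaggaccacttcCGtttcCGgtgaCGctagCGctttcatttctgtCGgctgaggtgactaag
Tdgf1: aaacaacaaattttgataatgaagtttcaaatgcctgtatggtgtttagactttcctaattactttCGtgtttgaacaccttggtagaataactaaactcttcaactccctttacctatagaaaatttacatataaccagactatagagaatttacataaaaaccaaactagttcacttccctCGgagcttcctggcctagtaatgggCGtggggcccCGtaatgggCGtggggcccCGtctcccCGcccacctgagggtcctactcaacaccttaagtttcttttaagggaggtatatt

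Among these 8 promoters the number of CpG dinucleotides ran from 1 in Lmna to 33 in Noc2l. Gas2l3 had 24 and Ddx18 had 17, although both lacked mutant H3K4me3, whereas Tdgf1 had 7 and mutant H3K4me3. CpG content therefore did not separate the 2 groups of promoters shown.

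Each group of libraries is represented by a single list of peak positions, without heights, scores or p-values. The conditions therefore have no replicate error, and no test between them was made. Intervals given below are 95% Wilson intervals, which cover counting error only and treat neighbouring regions as independent. A region without a mutant peak may still hold signal below the authors' threshold. On chromosomes 1 to 19 the control H3K27ac list held 73320 peaks over 9.83% of the sequence and the mutant list 114737 peaks over 9.64%. H3K4me3 covered 10.03% in control and 11.1% in mutant embryos.

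The control-only peaks lay toward the lower end of their width range, with a median of 6397 bp and quartiles of 5616 and 7688 bp. Shared control peaks were somewhat wider, with a median of 6950 bp. The narrowest control-only peak measured 5002 bp and the widest 9987 bp. Just outside the limits, control-only peaks of 5000 and 10009 bp were left out. The member nearest to a mutant H3K27ac peak was 9 bp away from it, whereas the shared peak with the least overlap had 14 bases in common with the mutant list.

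Most control-only peaks were not far from mutant H3K27ac. The gap to the nearest mutant peak had a median of 3588 bp and quartiles of 1516 and 7857 bp, and reached 220536 bp. Mutant peaks lay within 1 kb of 359 members, or 17.0%, and at 1 to 5 kb from 917, or 43.4%. A gap of 10 kb or more was found at 388 members, or 18.4%. Mutant peaks flanked 309 members (14.6%) within 5 kb on both sides and 967 (45.7%) on a single side, and 838 (39.6%) had none within 5 kb. These values describe the selection, since the same contrast chose the regions.

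**Figure D1:**
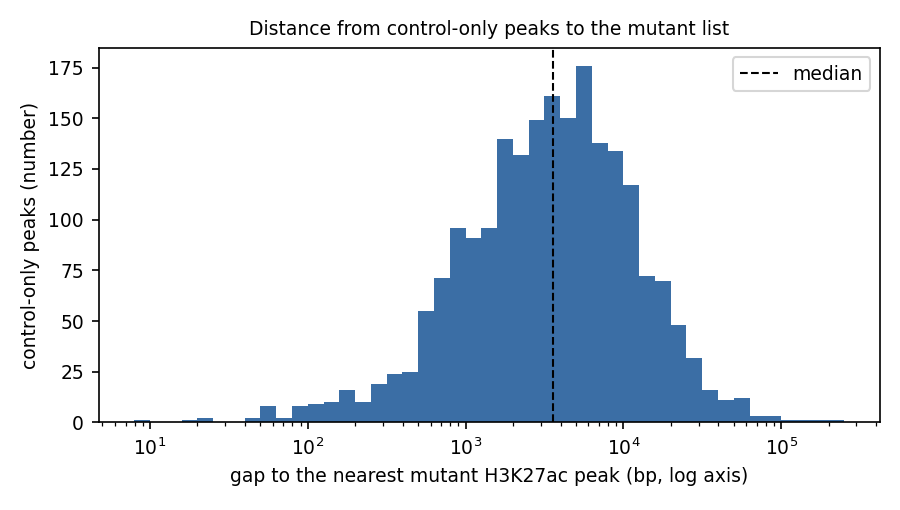
The histogram gives the number of control-only H3K27ac peaks of 5 to 10 kb (vertical axis) by their gap to the nearest mutant H3K27ac peak in bp (horizontal axis, log scale), with the median of 3588 bp as a dashed line. The gaps form a single broad hump, and few peaks are nearer than 100 bp.

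The surroundings of the members are described next, for the mark and contrast that chose them, so that less mutant than control H3K27ac nearby is favoured by the selection. Within 50 kb on each side, the median covered length was 24.8 kb in control (quartiles 9.88 and 43.5 kb) and 20.4 kb in mutant embryos (9.56 and 32.4 kb). The mutant flanks held less H3K27ac than the control flanks at 1368 of 2114 members, or 64.7% (62.6 to 66.7). Shared control peaks showed the same direction, with medians of 31.6 and 28.1 kb and less mutant coverage at 59.8% (58.6 to 60.9) of regions. Shared peaks overlap a mutant peak by definition, and such a peak can run on into the flanks, so that nothing is read from the lower mutant coverage around members. At mutant-only peaks of the same width the order was the opposite, with 12.5 kb in control and 18.9 kb in mutant embryos.

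The profiles of both marks around the peak centres are given as a description, and since the rule used H3K27ac and not H3K4me3, the marks are not compared with each other. At 19.5 kb from the peak centre, control H3K27ac covered 30.8% of bases on the side of lower coordinates and 29.2% on the side of higher coordinates, and mutant H3K27ac 23.1% and 23.8%. H3K4me3 at those distances was nearly equal, with 26.5% and 26.2% in control and 26.7% and 27.1% in mutant embryos. Shared peaks had the same pattern there, with H3K27ac at 36.4% and 36.0% in control and 29.8% and 28.7% in mutant embryos, and H3K4me3 at 31.2% and 30.9% against 31.6% and 30.03%. In the kilobases next to the peak centre, by contrast, H3K4me3 covered 57.2% and 56.3% of bases in control but 39.5% and 38.7% in mutant embryos. Shared peaks had a smaller central difference, with 63.4% and 63.6% in control and 49.2% and 49.8% in mutant embryos. Mutant-only peaks had the reverse, with 29.1% and 30.3% in control and 43.1% and 43.2% in mutant embryos.

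**Figure D2:**
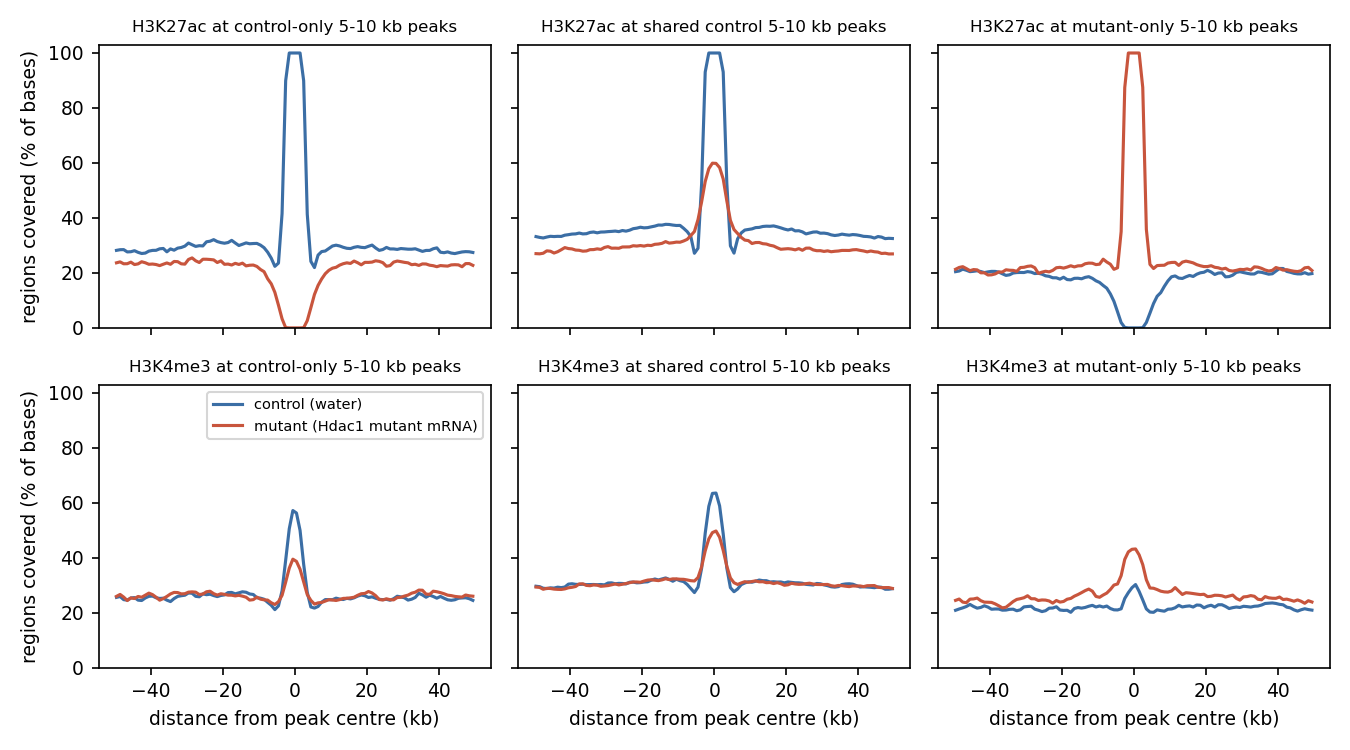
Each panel plots the share of bases covered by the deposited peaks (vertical axis, percent) against the distance from the peak centre (horizontal axis, kb, in bins of 1 kb) for H3K27ac (top) and H3K4me3 (bottom), with control in blue and mutant in red. Columns show the 2114 control-only, 6911 shared control and 1904 mutant-only H3K27ac peaks of 5 to 10 kb, and the H3K4me3 curves part at the centre and nearly coincide beyond it in the first column.

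H3K4me3 was not used to choose the regions, and it was found at fewer of them in mutant embryos. A control H3K4me3 peak overlapped 1716 of the 2114 members, or 81.2% (79.5 to 82.8), and a mutant H3K4me3 peak 1274, or 60.3% (58.2 to 62.3). These shares count an overlap of 1 bp or more, and with at least 50% of the member covered they were 48.6% and 35.6%. Both conditions marked 1134 members, control alone 582, mutant alone 140 and neither 258. Of the members with control H3K4me3, 33.9% (31.7 to 36.2) therefore had no mutant H3K4me3. The corresponding background was 26.4% of the 7672 control H3K27ac peaks of this width with control H3K4me3, members included. Among the shared peaks alone it was 24.3% (23.2 to 25.4). The members' share lay above that of shared peaks by 9.62 percentage points, with intervals that did not overlap. Shared peaks also had less H3K4me3 in mutant embryos, at 71.5% against 86.2% in control. Mutant-only peaks had the reverse, with 59.0% in control and 69.7% in mutant embryos. Of mutant-only peaks with mutant H3K4me3, 31.8% (29.3 to 34.3) had no control H3K4me3. The direction thus followed the condition in which the H3K27ac peaks were chosen.

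Covered bases went the same way. The median share of a member under H3K4me3 was 48.3% in control and 20.4% in mutant embryos, and that of a shared peak 59.6% and 45.4%. Coverage was lower in mutant at 1197 members (56.6%), higher at 610 (28.9%) and equal at the rest, most of which had no H3K4me3 at all. Among shared peaks it was lower in mutant at 52.0% and higher at 36.3%. Wholly covered members numbered 160 (7.57%) under mutant and 153 (7.24%) under control H3K4me3, against 12.7% and 10.4% of shared peaks.

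The difference from shared peaks was present at both ends of the width range. In members of 5 to 6 kb with control H3K4me3, 38.0% (34.3 to 41.9) had no mutant H3K4me3, against 28.8% (26.6 to 31.2) of shared peaks. In members of 8 to 10 kb the values were 27.1% (22.9 to 31.8) and 19.1% (17.4 to 20.9). The distance to mutant H3K27ac showed little relation below 10 kb. The share without mutant H3K4me3 was 35.1% (29.8 to 40.7) at gaps under 1 kb, 30.8% (27.6 to 34.2) at 1 to 5 kb and 31.7% (27.2 to 36.6) at 5 to 10 kb. At gaps of 10 kb or more it was 43.0% (37.6 to 48.6). That interval lay above those of the 1 to 5 kb and 5 to 10 kb classes but overlapped that of gaps under 1 kb.

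The H3K4me3 peaks that touched the members were also examined by their own width. There were 2130 such peaks in control embryos, with a median width of 3469 bp, and 1567 in mutant embryos, with a median of 4137 bp. Of the control H3K4me3 peaks of 2 to 5 kb at members, 42.9% (39.5 to 46.4) overlapped no mutant H3K4me3 peak, against 35.4% (33.6 to 37.2) at shared H3K27ac peaks and 34.4% (33.8 to 35.01) over the whole list. For those of 5 to 10 kb the values were 21.1% (17.8 to 24.9), 15.4% (13.9 to 17.0) and 15.1% (14.4 to 15.9). Above 10 kb they were 2.38%, 2.39% and 2.73%, so that the widest H3K4me3 domains were almost always met again in mutant embryos. At 1 to 2 kb they were 63.2% (58.1 to 68.1), 53.1% (50.1 to 56.1) and 57.8% (57.1 to 58.5). Up to 1 kb the members' share of 72.6% (67.0 to 77.5) again lay above that at shared peaks, 63.4% (59.9 to 66.8), but under that of the whole list, 80.3% (79.9 to 80.8).

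Most control-only peaks lay away from promoters. Of the members, those within 2 kb of the start or end of a protein-coding gene numbered 594, or 28.1% (26.2 to 30.1). A further 915 (43.3%) lay in gene bodies and 605 (28.6%) between genes. By bases, 13.2% of member sequence lay in gene-end windows, 51.9% in gene bodies and 34.9% between genes, where chromosomes 1 to 19 as a whole have 5.73%, 36.8% and 57.4%. Shared peaks had a similar make-up, with 14.0%, 49.8% and 36.1%. Mutant-only peaks lay more often between genes, at 794 of 1904 regions or 41.7% (39.5 to 43.9), and 48.05% of their bases did.

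The absence of mutant H3K4me3 differed between these contexts. At gene ends 19.1% (16.03 to 22.6) of members with control H3K4me3 had none in mutant embryos, in gene bodies 42.5% (38.8 to 46.2) and between genes 38.7% (34.5 to 43.1). Shared peaks were lower in each context, with 12.9% (11.5 to 14.4), 35.3% (33.4 to 37.3) and 23.5% (21.5 to 25.5). The difference from shared peaks was largest between genes, among these 3 contexts. Promoter windows, 300 bases around annotated starts, were present in 276 members (13.1%). Of the 271 with control H3K4me3, 23 or 8.49% (5.72 to 12.4) had no mutant H3K4me3, against 4.90% (3.71 to 6.43) of shared peaks with a promoter, and these intervals overlapped. In members without a promoter it was 38.7% (36.2 to 41.2), against 28.1% (26.9 to 29.4) in shared peaks.

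**Figure D3:**
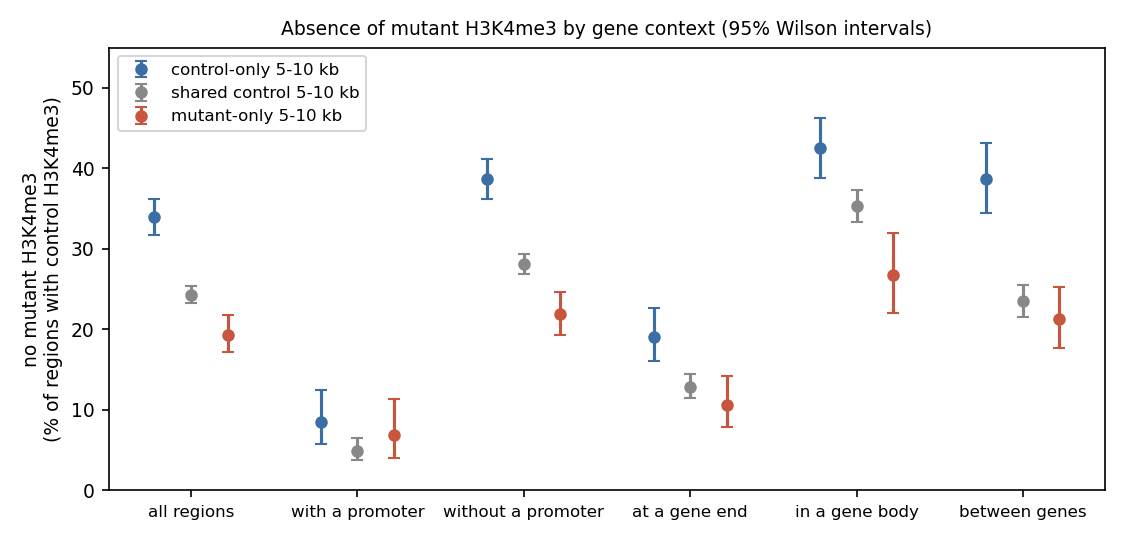
Points give the percentage of regions with control H3K4me3 that have no mutant H3K4me3 (vertical axis) for control-only (blue), shared control (grey) and mutant-only (red) H3K27ac peaks of 5 to 10 kb, by gene context (horizontal axis), with 95% Wilson intervals as bars. Control-only peaks lie highest in every context, and the intervals overlap those of shared peaks where a promoter is present.

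At the level of promoters, 368 promoter windows of 319 protein-coding genes overlapped a control-only peak, and none of these windows held mutant H3K27ac, which follows nearly from the choice of regions. H3K4me3 covered 349 of them in control (94.8%, 92.1 to 96.7) and 317 in mutant embryos (86.1%, 82.2 to 89.3). Among those 349 promoters, 35 or 10.03% (7.30 to 13.6) had no mutant H3K4me3. That is near the background of 11.1% over all promoters with control H3K4me3, and above the 5.71% (4.57 to 7.12) of promoters in shared H3K27ac peaks. Over promoters under any control H3K27ac peak it was 6.95% (6.38 to 7.56), with an interval that overlapped that of members. Mutant H3K4me3 was thus present at most promoters in members, beside 89.8% of promoters under any control H3K27ac peak. Their lack of mutant H3K27ac comes from the selection, and nothing is read from the pairing of the marks.

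CpG content went along with the H3K4me3 state. Member promoters with H3K4me3 in both conditions had a median of 21.5 CpG per 300 bases (quartiles 14 and 29.75), those with H3K4me3 in control alone had 8 (6 and 18.5), and the 16 with none had 5.5. Several of these 16 were nearly identical windows of the same gene, 1520401A03Rik, with 6 CpG each, which weighs on their median. All 250 member promoters with at least 14 CpG, the median over all promoters, had H3K4me3 in control, and 5.20% (3.06 to 8.69) had none in mutant embryos. Of the 99 poorer promoters with control H3K4me3, 22.2% (15.2 to 31.4) had none in mutant embryos. The same order held over all promoters of the table, with 6.76% and 22.3%, and in shared peaks, with 3.68% and 12.3%. With a median of 20 CpG, member promoters were CpG-rich like those under control H3K27ac in general, which had 21, whereas all promoters had 14. Among the sequences shown above, Lmna is an example of a CpG-poor promoter without mutant H3K4me3, and Gas2l3 and Ddx18 are exceptions.

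**Figure D4:**
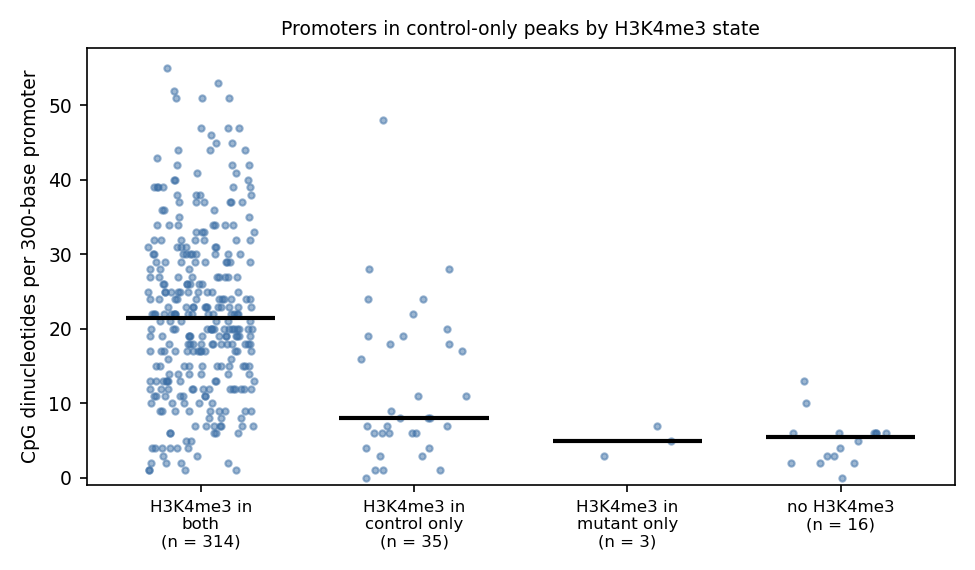
Each point is a promoter in a control-only H3K27ac peak, placed by its H3K4me3 state (horizontal axis) and its number of CpG dinucleotides per 300 bases (vertical axis), with the median as a line. The 314 promoters with H3K4me3 in both conditions have a median of 21.5 and the 35 with H3K4me3 in control only a median of 8, with overlapping ranges.

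Short motifs were counted in the same windows on both strands, as letters only. GGGCGG, the GC box bound by Sp factors, was in 62.2% of member promoters, 62.5% of promoters in shared peaks and 47.04% of all promoters. CCGGAAG, the core bound by Ets factors, was in 23.1% (19.1 to 27.7) of member promoters and 20.8% of those in shared peaks. It was in 11.9% of all promoters and in 8.91% (6.01 to 13.0) of those in mutant-only peaks. TATAAA was in 5.98%, 6.74% and 12.7% of member, shared and all promoters. CCAAT was in 39.1%, 39.7% and 38.1%, and GGATTA, a core bound by Obox and Otx homeodomains, in 6.52%, 5.84% and 6.42%. AAGGTCA, the core bound by Nr5a2, was in 2.45%, 3.14% and 4.03%. The Nrf1 core GCGCATGCG was in 4.08%, 4.64% and 2.37%, and the Yy1 core AAGATGGCG in 3.26%, 3.52% and 1.83%. No motif holds another of the 8 in full, and those for Sp, Ets, Nrf1 and Yy1 contain a CpG themselves. In each of the 8 motifs the interval of member promoters overlapped that of promoters in shared peaks.

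At gene ends, 777 of 20665 protein-coding genes on chromosomes 1 to 19 had a member, which is 3.76%. Of these genes, 364 or 46.8% had no mutant H3K27ac within 2 kb of either end, while the other 413 had a mutant peak near the same or the opposite end. The share depended on the window, at 58.9% with 1 kb and 21.0% with 5 kb. The background is 22.6% of the 11632 genes with control H3K27ac at an end, and the excess is built into the selection. H3K4me3 at either end was present at 757 of the 777 genes in control and 725 in mutant embryos. Among those 757 genes, 43 or 5.68% (4.24 to 7.56) had none in mutant embryos. The share was 5.08% (4.68 to 5.51) over all genes with control H3K27ac and 3.14% (2.53 to 3.90) over genes with a shared peak and no member at an end, the last with an interval below that of the members.

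Among 12 lists of genes, those for ribosome biogenesis, splicing and the proteasome held several genes with a control-only peak at an end. The counts are to be read against the 3.76% of all genes and the 6.68% of genes with control H3K27ac. They were 8 of 49 matched ribosome biogenesis genes, 7 of 50 splicing and hnRNP genes and 4 of 34 proteasome genes. There were 2 of 20 trophectoderm and Hippo genes, and 1 each among 48 transcription machinery, 20 pluripotency and 31 maternal genes. None was found among 30 genes of the 2-cell burst, 50 cytosolic ribosomal protein genes, 48 histone acetylation and deacetylation genes, 18 H3K4 methylation genes or 35 genes of differentiated tissues. At the ends of 2-cell and ribosomal protein genes, control embryos had H3K27ac peaks of any width at 28 of 30 and 50 of 50, and mutant embryos at 26 and 45. With a background of 6.68%, lists of this size hold few such genes, and nothing is read from a count of 0. A member within 2 kb of a gene's end need not belong to that gene. Of the 24 genes of these lists with a member, 10 had a promoter of their own inside it, and at 6 (Utp3, Wdr12, Hnrnpu, Hnrnpul1, Srsf7 and Tead3) the member lay outside the gene.

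Of the ribosome biogenesis genes with a member, 6 of 8 had no mutant H3K27ac at either end, as did 3 of 4 proteasome genes and 2 of 7 splicing genes, beside the 46.8% of all genes with a member, all with the same window of 2 kb. The rule chose members by the absence of mutant H3K27ac, so nothing is read from these counts. The widest member at these genes, on chromosome 11 from 106253584 to 106263468, spanned the paired starts of Ftsj3, a factor of pre-rRNA processing, and Psmc5, an ATPase of the proteasome's regulatory particle. That member counts in both lists. H3K4me3 covered 95.1% of it in control and 53.7% in mutant embryos. Fbl, the rRNA methyltransferase fibrillarin, had a member of 9483 bp under 84.5% control and 89.5% mutant H3K4me3, and had mutant H3K27ac elsewhere at its ends. At Bms1, a GTPase of small-subunit assembly, the member of 9268 bp lay 11843 bp from the nearest mutant H3K27ac peak, with H3K4me3 over 83.8% and 54.0%. Ddx18 encodes a nucleolar RNA helicase, and its member (chromosome 1, 121561555 to 121569255) had 89.4% of its bases under control H3K4me3 and 0% under mutant H3K4me3. Ddx18 was also the only gene with a member in these lists that had no mutant H3K4me3 at either end. The other 4 were Noc2l, Utp3, Wdr12 and Noc3l. Over all 8 genes of the list, mutant H3K4me3 covered more of the member than control H3K4me3 at 3 and less at 5, beside 28.9% and 56.6% of all members.

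Among splicing genes, the widest member belonged to Srsf4, an SR protein, with 9445 bp and a mutant H3K27ac peak 125 bp away. H3K4me3 covered 80.9% of it in control and 34.8% in mutant embryos. At Hnrnpu, which encodes a nuclear RNA-binding scaffold protein, the member measured 8143 bp with 57.0% and 69.6% under H3K4me3, but it lay outside the gene and over the promoter of its neighbour Cox20. Tra2b, a splicing activator, had its promoter in a member of 8097 bp that was wholly under control and to 89.3% under mutant H3K4me3. At Snrpd3, a core protein of spliceosomal snRNPs, the member of 6017 bp had 49.99% and 79.8%. Hnrnpul1, U2af2 and Srsf7 completed the list. Over all 7 splicing genes, H3K4me3 covered more of the member in mutant embryos at 4 and less at 3, beside 28.9% and 56.6% of all members. Over the 24 genes of all lists with a member it was more at 14 and less at 10.

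The proteasome genes with a member besides Psmc5 were Psma1 and Psmb4, which encode subunits of the catalytic core, and Psmd8 of the regulatory lid. Members at Psma1 (8468 bp) and Psmb4 (6058 bp) lay wholly under mutant H3K4me3, with 76.5% and 84.9% in control. At Psmd8 the member of 5065 bp had 100% in control and 88.9% in mutant embryos. From the remaining lists, Tead3 and Tead1 encode TEAD factors, the DNA-binding partners of Yap in the Hippo pathway. Their members of 9065 and 5177 bp, the first of which lay outside Tead3 and over its neighbour Tulp1, had 77.6% and 59.4% under control H3K4me3 and 100% each under mutant H3K4me3. Tdgf1, the Nodal co-receptor Cripto, had its promoter in a member of 5493 bp with 62.5% and 100%. Gtf2f1, the large subunit of the general factor TFIIF, had 38.5% and 72.04% over a member of 7390 bp. Bpgm, listed with the maternal genes, had 46.3% and 90.1% over 7429 bp.

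The 6 widest members varied in H3K4me3. On chromosome 8 (105155307 to 105165293), a peak of 9987 bp, 5197 bp from Ces4a, had no control H3K4me3 and 90.1% under mutant H3K4me3. A peak of 9986 bp on chromosome 10 (127729437 to 127739422) lay at Tac2, which encodes a tachykinin neuropeptide, with 26.3% and 39.2%. That peak also overlapped the promoter of Zbtb39, which had H3K4me3 in both conditions. The peak of 9985 bp on chromosome 6 (72898465 to 72908449) lay at Kcmf1, a ubiquitin ligase, with 91.9% and 100%. Those at Mrnip and Sqstm1 (chromosome 11, 50199002 to 50208978, 45.2% and 42.5%), at Ist1 (chromosome 8, 109681986 to 109691953, 65.1% and 93.2%) and in Pax5 (chromosome 4, 44592431 to 44602387, 71.7% and 64.5%) followed. Of these 6, H3K4me3 covered more of the peak in mutant embryos at 4 and less at 2. Over all members the order was the opposite, with more at 28.9% and less at 56.6%.

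The 6 members farthest from mutant H3K27ac ranged from no H3K4me3 to a majority of bases under it in control embryos. The extreme lay on chromosome 3 (45854881 to 45861350), 420301 bp from the protocadherin gene Pcdh10 and 220536 bp from a mutant peak, with 17.4% under control and none under mutant H3K4me3. Members near Mup5 (chromosome 4, 61873436 to 61879310), Pcdh9 (chromosome 14, 92859223 to 92864874) and Oprm1 (chromosome 10, 6633249 to 6638288) had no H3K4me3 in either condition. The member at the olfactory receptor gene Olfr1463 (chromosome 19, 13234748 to 13240305) had 9.01% under mutant H3K4me3 alone. Since Mup and olfactory receptor genes have many near copies, the placement of reads there is uncertain. The last of the 6, in the adhesion gene Cadm2 (chromosome 16, 66799919 to 66806080), had 65.7% in control and none in mutant embryos.

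Both marks were absent from the mutant lists at 6 members that lay wholly under control H3K4me3, the widest such regions. They lay in Lmna, which encodes the nuclear lamins A and C (chromosome 3, 88496769 to 88506329), and at Gas2l3, a cytoskeletal linker protein (chromosome 10, 89436976 to 89445640). Next came a region 386 bp from Kpna7, an importin of oocytes and early embryos (chromosome 5, 144975263 to 144983340), and 1 in Stpg4 (chromosome 17, 87405244 to 87411670). The last were in Lgals9, a galectin (chromosome 11, 78966697 to 78973049), and 4932 bp from the arginine transporter gene Slc7a1 (chromosome 5, 148404837 to 148410976). Their widths ran from 6140 to 9561 bp, and their gaps to mutant H3K27ac from 303 to 26120 bp. In the opposite case, 4 members without control H3K4me3 lay wholly under mutant H3K4me3. They were at Prr29 and Icam2 (chromosome 11, 106374030 to 106382990), near Usp44 (chromosome 10, 93798570 to 93804975), in Arf1 (chromosome 11, 59213662 to 59220012) and near Cmtm4 (chromosome 8, 104400108 to 104405631).

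Most control-only peaks had no other member within 50 kb, but their spacing was not compared with that of other peaks. The median gap between neighbouring members was 437.1 kb, and 1601 of them had no other within 50 kb. The remaining 513, or 24.3%, formed 233 runs of 2 or more. The longest run held 6 members over 129.9 kb of chromosome 7 (25127501 to 25257395), from Pou2f2, a POU-domain transcription factor gene, to Erf, an Ets-domain repressor gene. Within it control H3K27ac covered 57.4 kb in 13 peaks and mutant H3K27ac 17.9 kb in 8 peaks. H3K4me3 covered 67.8 kb in control and 53.5 kb in mutant embryos. The run was thus not free of mutant H3K27ac, and a mutant peak lay 24 bp from one of its members, in Pou2f2.

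**Figure D5:**
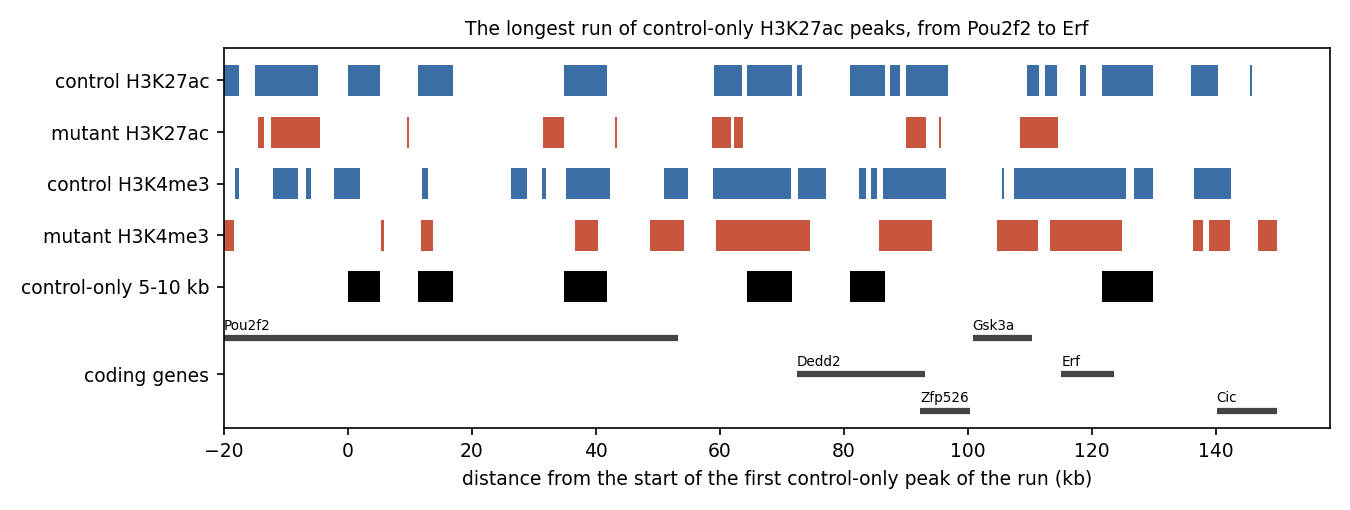
The map shows the deposited peaks of both marks (control in blue, mutant in red), the 6 control-only H3K27ac peaks (black) and the protein-coding genes over the longest run, against the distance from the start of its first member in kb. Mutant H3K27ac peaks lie between the black bars, and mutant H3K4me3 overlaps 5 of the 6.

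A few genes held several members. Rngtt, the mRNA capping enzyme, held 5 over 192.3 kb (chromosome 4, 33310300 to 33502614), and H3K27ac covered 45.5 kb of it in control and 16.04 kb in mutant embryos. B4galnt3, a glycosyltransferase gene (chromosome 6, 120200753 to 120294917), held 4, with 51.5 and 9.14 kb. Tnrc6b, an effector of microRNA silencing (chromosome 15, 80711313 to 80941086), and Arhgap26 (chromosome 18, 38601617 to 39376285) also held 4 each, with 95.8 and 66.2 kb and with 125.5 and 87.1 kb. In these last the mutant list had more peaks than the control list, 25 against 12 in Tnrc6b and 48 against 37 in Arhgap26, over a shorter total length. Sfxn2, a mitochondrial carrier gene (chromosome 19, 46573325 to 46596901), is the shortest of 7 genes with 3 members. It had 15.3 kb of control H3K27ac and none in mutant embryos, while H3K4me3 covered 8.04 kb in control and 12.3 kb in mutant embryos. A single member was found in 1296 genes, and 128 genes held 2.

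All 19 chromosomes held members, from 51 on chromosome 19 to 179 on chromosome 11. Per control H3K27ac peak of this width, the share without mutant overlap was lowest on chromosome 2, at 17.5% (14.9 to 20.5), and highest on chromosome 15, at 29.4% (24.8 to 34.4). The interval of chromosome 2 was the only one that lay wholly below the 23.4% of all chromosomes. Those of chromosomes 6 (28.2%, 24.3 to 32.6), 10 (27.4%, 23.4 to 31.8), 15 and 17 (27.5%, 23.4 to 31.9) lay at or above it.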

How the data were processed

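Peak positions were analysed as deposited by the authors. Each of the 4 lists gives only coordinates, without a score, and the labels name the same list for both libraries of a group. CASAVA, Trimmomatic, Bowtie2, SAMtools, Picard, MACS2 and deepTools, with the builds mm10 and GRCm38, are named per the submitters' processing notes, without settings. Whether libraries were pooled, the calling threshold and the depth are not given in the sources used here. The smallest gap between peaks was 681 bp in the control and 602 bp in the mutant H3K27ac list, and such limits can change widths.

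Overlap meant at least 1 shared base. Genes and promoters came from RefSeq tables of GRCm38.p6. Promoter entries existed for 16457 of 20665 protein-coding genes on chromosomes 1 to 19. Python 3.11.15 with pandas 2.3.3 and scipy 1.17.1 was used, and the interval functions were tested on simulated data.

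The regions and the gene lists were chosen with earlier results of these data known. Named regions are the 6 widest, the 6 farthest from mutant H3K27ac, the 6 most covered by control with no mutant H3K4me3, the 4 most covered by mutant with no control H3K4me3, and the longest run. Named genes are those of the 12 lists with a member at an end (up to 4 per list with full values) and the 5 with most members. No statistical test between conditions was made, since each group has 1 list. Alternatives covered joining of peaks, width limits, gaps, overlap, gene windows, runs, flanks and promoter windows.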

Additional observations from a re-analysis of the deposited data

How the results depend on the processing

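No paired analysis was possible because the libraries of a group share 1 list, so replicates could not be left out either. Depth is unknown, and without peak scores a stricter threshold could not be tried.

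The excess of members over shared peaks without mutant H3K4me3, 9.62 percentage points, kept its direction in all 10 alternatives run, between 6.90 points (at least 50% of the region covered) and 11.4 points (no mutant peak within 5 kb). This comparison and its alternatives were chosen after the data were seen. Leaving motifs aside, 38 recomputed values stayed within the counting interval, or within 1.5 times for counts and flank coverage, and 35 moved beyond it. The 8 recomputed motif shares stayed within theirs.

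The number of members was 838 with no mutant peak within 5 kb, 3298 above 4 kb and 1286 above 6 kb. With peaks under 1 kb apart joined, 1620 of the 2114 members lay in a region that met the rule, and 1948 did so under common limits on gap and width.

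The share with control H3K4me3 was 78.5% after merging, 75.7% above 4 kb, 84.4% above 6 kb, 48.6% at 50% coverage and 79.3% without the shortest H3K4me3 peaks. The share with mutant H3K4me3 was 57.5%, 57.0%, 64.0%, 35.6% and 57.4% in the same order, and 57.4% with no mutant H3K27ac peak within 5 kb. The share without mutant among those with control H3K4me3 was 36.8% with no mutant H3K27ac peak within 5 kb, 31.5% above 6 kb, 41.8% at 50% coverage and 38.7% in regions with no promoter.

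The share at a gene end was 26.0% after merging, 25.1% above 4 kb, 31.1% above 6 kb, 24.9% with windows of 1 kb, 39.3% with 5 kb, 40.3% with all genes of the table and 13.1% with promoter windows. The share between genes was 31.5% with no mutant peak within 5 kb, 31.3% above 4 kb, 26.4% above 6 kb, 19.02% with all genes and 35.6% by midpoint. Of genes with a member at an end, 58.9% had no mutant H3K27ac at either end with windows of 1 kb and 21.0% with 5 kb. Runs held 16.3% of members at 25 kb and 37.4% at 100 kb. Wider gene-end windows and longer run distances count more members by construction. A lower width limit adds members but does not fix the direction of the shares. For the other shifts the cause was not tested.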

Other observations

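Further promoters in control-only peaks belonged to 12 genes that were picked by hand after their values were seen, so that no share is drawn from them. At the glycolytic gene Gapdh (chromosome 6, 125161852 to 125166467), the member of 9915 bp lay 14317 bp from mutant H3K27ac, with H3K4me3 over 36.7% in control and 26.2% in mutant embryos. Ldha, which encodes lactate dehydrogenase, had a member of 5117 bp with 80.8% and 100%. Cdk1, the mitotic kinase, had a member of 7967 bp that lay 11756 bp from mutant H3K27ac, with 100% and 97.8%. Ccnb2, a mitotic cyclin, had 55.6% and 51.9% over 8781 bp, and Ube2c, an enzyme of the anaphase-promoting pathway, 90.0% and 97.7% over 9571 bp. Orc6, of the origin recognition complex, had 100% and 83.2%. At the imprinted gene Igf2r, 97.6% and 98.0% of a member of 8295 bp lay under H3K4me3, and at Tert, the telomerase reverse transcriptase, 72.4% and 76.0% of 9642 bp. Cbx1, a heterochromatin protein, had 77.3% and 72.0%, and Usp16, a deubiquitinase of histone H2A, 95.6% and 86.2%.

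Among all member promoters with control H3K4me3, 10.03% had none in mutant embryos, and 2 of them are given here. Smarcc2, a subunit of BAF remodelling complexes, had 71.7% in control and 0% in mutant embryos, although its promoter holds 48 CpG, the most of the 35 member promoters with H3K4me3 in control only. Aurkc, a kinase of meiosis, had 45.4% and 0%, with 6 CpG.

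Long noncoding RNA genes contributed 93 promoters of 79 genes. H3K4me3 covered 73.1% (63.3 to 81.1) of these in control and 63.4% (53.3 to 72.5) in mutant embryos. Of those with control H3K4me3, 19.1% (11.5 to 30.01) had none in mutant embryos, against 16.9% (12.9 to 21.9) in shared peaks, with overlapping intervals.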
